A study of Rattus norvegicus with 6 samples.

Results

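The Wnt pathway was examined in immature cortical neurons of the rat at rest and after a short exposure to C1q, the recognition protein of the classical complement cascade. The set held 44 genes chosen by name and known role, with earlier results of these data known. They comprised Wnt ligands, their receptors and coreceptors, secreted antagonists, intracellular components, nuclear factors with feedback targets, and the enzyme and carrier that ligand release needs. The array named 38 of them through a probe set assigned to that gene alone, out of 14506 genes named in this way. Wnt7a, Wnt11, Fzd7, Fzd10, Dvl2 and Tcf7l2 were not analysed here. Cells were taken from the cortex of Sprague-Dawley embryos at day 18 and kept for 3 days in NB-N2. One group of 3 arrays carried RNA of untreated cultures and the other group of 3 arrays carried RNA of cultures given C1q at 10 nM for 3 h, and the labels name no genotype or transgene for either.

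Wnt proteins are lipid-modified secreted ligands. In the canonical branch they bind a Frizzled receptor together with Lrp5 or Lrp6, and Dishevelled proteins then hold back a destruction complex of Axin, Apc and the Gsk3 kinases, so that beta-catenin accumulates and acts with Tcf/Lef factors on target genes. In other branches Ror2, Ryk and Vangl2 pass signals to the cytoskeleton. In developing cortex the pathway is known for roles in patterning, neurogenesis, axon growth and synapse formation.

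Values are the deposited intensities, 1 per probe set and array on a linear scale, and the mean of each gene is given with the SD over 3 arrays. Brightness also depends on the probes, so intensities were compared between arrays, for the same gene or the same sum of markers, and genes were not ranked by level. Such a sum is led by its brightest markers, and the lower limit for testing was the same for all genes. Array medians ran from 147 to 155. All 8 pan-neuronal markers lay above an intensity of 94.4, the lower limit of the probe sets tested, as did 7 of 8 astrocyte, 6 of 8 radial glia, 5 of 6 oligodendrocyte lineage, 5 of 8 mural and meningeal, 2 of 8 microglial and 2 of 8 endothelial markers. Among the mural and meningeal markers, Lum was the dimmest, at 12.1 ± 4.3 untreated and 9.2 ± 3.63 after C1q (SD, n = 3 each). In the same list, Acta2 averaged 6837 ± 153 and 6657 ± 113, and Col1a1 averaged 189 ± 19.3 and 191 ± 17.9 (SD, n = 3 each). The summed level of 8 radial glia markers was 7932 to 8063 on untreated arrays and 7582 to 7898 on C1q arrays, and that of 8 inhibitory neuron markers was 15232 to 16114 and 14929 to 15146. Both sums were lower on every C1q array, while those of the other marker lists, pan-neuronal and astrocyte among them, overlapped between groups. The groups did not overlap for 0 of 6 tested radial glia and 1 of 8 inhibitory markers, against 5.72% of probe sets tested. Of those tested markers, Sox2 and Lhx6 had higher means after C1q and the rest lower ones, beside lower means for 63.3% of all probe sets tested. Hes1 and Hopx, radial glia markers under the limit, also had higher means after C1q. They read 82.0 ± 4.58 and 90.2 ± 6.63, and 54.0 ± 11.0 and 54.5 ± 2.47 (SD, n = 3 each). The part of these markers in the Wnt values was not tested. The radial glia and inhibitory sums came from deposited values, and their gaps between groups were narrow, 7898 against 7932 and 15146 against 15232. The part of an array-wide shift in these gaps was not tested. In RNA of whole cultures, fewer cells of a type and less RNA per cell cannot be told apart either. The labels do not say whether the arrays of a group came from separate cultures, so the p-values rest on a spread between arrays that could be technical only.

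No Wnt pathway gene passed the test for a difference between C1q-treated and untreated neurons. Of the 38 genes, 34 were bright enough to be tested. By limma with Benjamini-Hochberg adjustment over all 17529 probe sets tested, 0 of the 34 were called at an adjusted p under 0.05, as were 0% of all probe sets, and no member had an adjusted p below 0.9999. Before adjustment, 0 of 34 members had p under 0.05, against 2.49% of all probe sets. The log2 fold changes of the members ran from -0.15 for the ligand gene Wnt4 to 0.20 for the receptor gene Ror2, with a median of -0.021 beside -0.019 over all probe sets tested. The 95% interval of the fold lay within 1.25-fold for 30 of 34 members, or 88.2%, and for 83.6% of all probe sets. It lay within 1.5-fold for all 34, and for 98.8% of all probe sets. Transcript changes larger than that were therefore outside the interval for each tested member, on the scale log2(intensity + 16), which understates changes of dim genes. Each interval holds for its gene alone and rests on the same spread between arrays as the p-values, which could be technical only.

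Means were lower after C1q for 22 members and higher for 12, or 64.7% lower against 63.3% of all probe sets. Quantile normalization gave 19 lower and 15 higher members, with 49.2% of all probe sets lower, and median centring gave 16 lower and 18 higher, with 44.6% of all probe sets lower. The 3 C1q values all lay on one side of the 3 untreated values for 2 of 34 members, Wnt4 and Ror2. That share of 5.88% was close to the 5.72% found over all probe sets tested. The members thus followed the bulk of the array in size, direction and separation of the groups, as the curves of the C1q differences show.

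**Figure D1:**
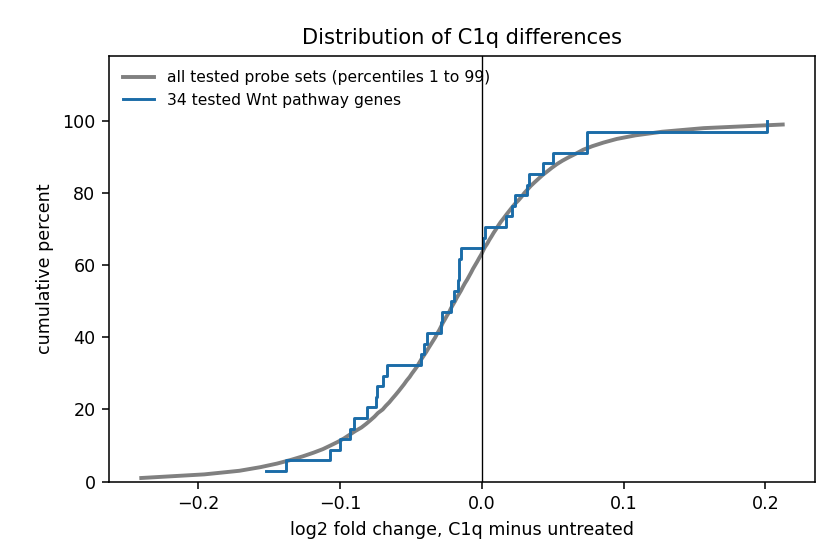
Cumulative percent (y axis) of the log2 fold change, C1q minus untreated (x axis), for the 34 tested Wnt pathway genes (blue steps) and for all 17529 probe sets tested (grey curve, percentiles 1 to 99). The blue steps follow the grey curve, with medians of -0.021 and -0.019, and Ror2 stands alone at the right at 0.20.

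Of the 7 ligand genes tested, 4 had a higher and 3 a lower mean after C1q, and none passed. Wnt7b, a ligand known to promote dendrite growth, averaged 1095 ± 54.7 without C1q and 1120.2 ± 25.6 with it (SD, n = 3 each). Wnt5a, which signals mainly through the non-canonical branch and guides axons, read 216 ± 13.5 and 228 ± 8.95 (SD, n = 3 each). The groups of both genes overlapped in the deposited values and were apart, with C1q higher, after quantile normalization, again without passing the test. In that run the groups did not overlap for 3 of 34 members and for 7.52% of all probe sets tested. Wnt2, Wnt5b and Wnt8b, a ligand gene of the early hippocampal region, lay close to the limit of 94.4, with untreated means of 103, 119 and 108 and means of 103, 111 and 109.8 after C1q. Wnt3, at 97.0 ± 12.6 untreated and 90.4 ± 12.6 after C1q (SD, n = 3 each), lay under that limit in its mean over all arrays and was not tested.

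On the log2 scale, Wnt4 had the largest difference between groups and Wnt10b the largest spread within groups among the ligand genes tested. Wnt4, a ligand with roles in both branches, read 176, 170.1 and 169 on untreated arrays 1 to 3, against 160.0, 165 and 136 on the C1q arrays in the same order. Every C1q value lay under every untreated one, though C1q array 3 stood well apart from the other two. The fold was 0.90 with a 95% interval of 0.778 to 1.04, and limma's adjusted p was 0.9999. With quantile normalization or median centring the groups of Wnt4 overlapped. Wnt10b, a canonical ligand, read 204, 305 and 255 on the untreated arrays, so that its untreated values alone spanned more than the distance between its group means of 254 ± 50.5 and 235 ± 21.3 (SD, n = 3 each).

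**Figure D2:**
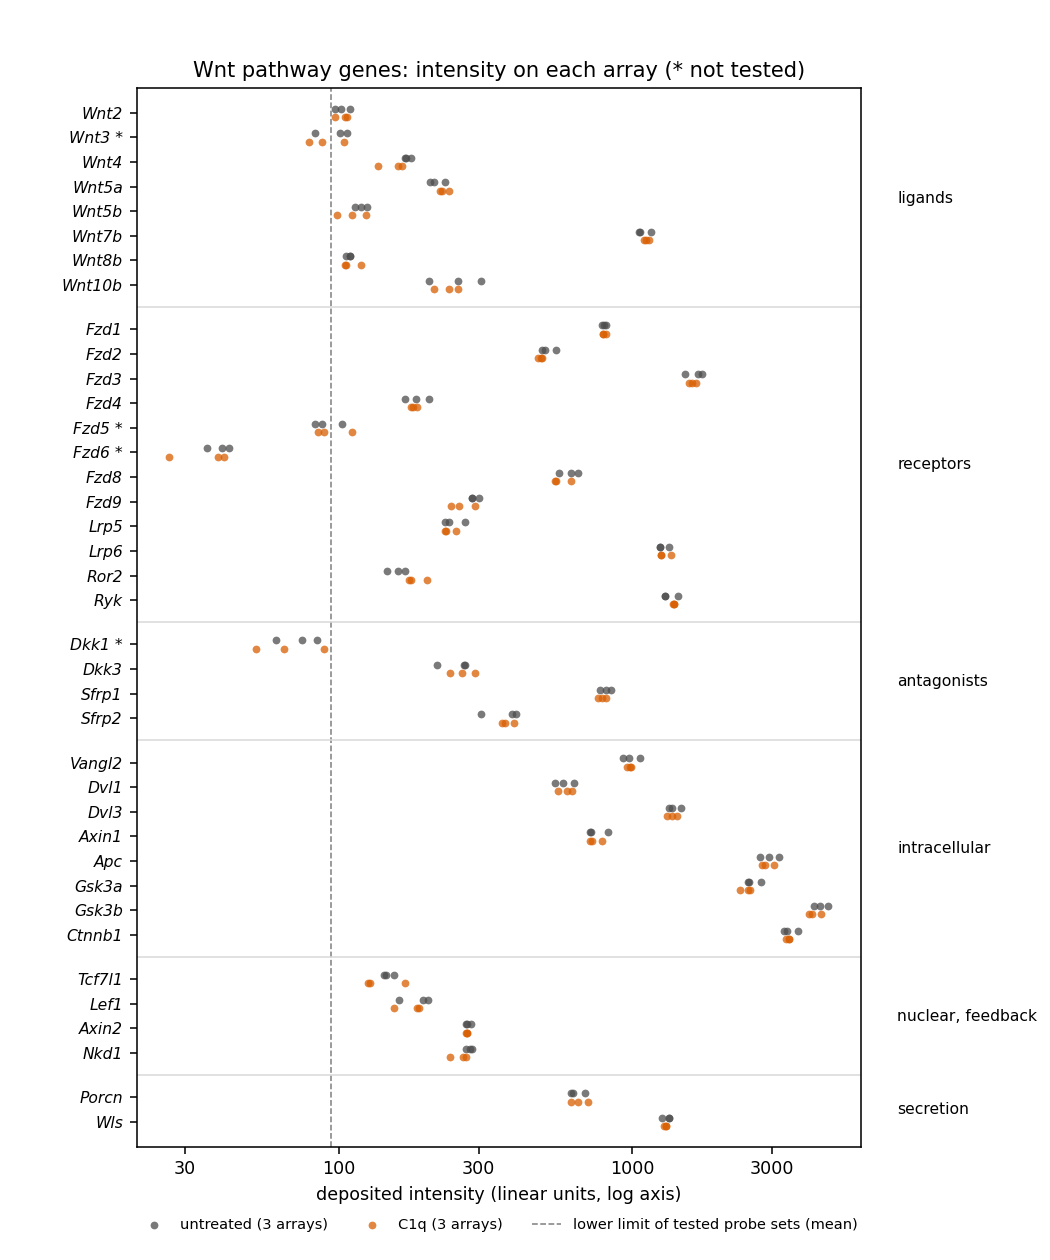
Deposited intensity (x axis, log scale) of the 38 Wnt pathway genes (y axis, by role) on each of 3 untreated arrays (grey points) and 3 C1q arrays (orange points). The dashed line marks 94.4, the lower limit of the tested probe sets by their mean, and asterisks mark the 4 genes under it. Grey and orange points overlap for all genes but Wnt4 and Ror2.

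Of the 10 receptor and coreceptor genes tested, 4 had a higher and 6 a lower mean after C1q, and no Frizzled gene separated the groups. Fzd3, which directs axon tracts through the planar polarity branch, averaged 1644 ± 116 untreated, against 1609.7 ± 42.9 after C1q (SD, n = 3 each). Fzd1 was the steadiest of the receptors, at 802 ± 11.5 and 803 ± 12 (SD, n = 3 each). Fzd2 read 517 ± 30.7 and 487 ± 8.81, and Fzd8 read 614 ± 47.0 and 572 ± 39.4 (SD, n = 3 each). The 3 C1q values of Fzd2 included one, 495, just above its lowest untreated value of 494. Fzd9 read 291 ± 9.07 untreated and 264 ± 25.9 after C1q, and Fzd4 read 186 ± 17.5 and 180.1 ± 4.75 (SD, n = 3 each). Fzd5 and Fzd6 lay under the limit and were not tested. Fzd5 averaged 91.3 ± 9.98 and 95 ± 13.7 after C1q, and Fzd6 averaged 39.4 ± 3.44 and 35.4 ± 7.71 after C1q (SD, n = 3 each).

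The coreceptors of the canonical branch also overlapped between groups. Lrp6, which pairs with Frizzled to receive canonical ligands, read 1342, 1245 and 1245 on untreated arrays 1 to 3, against 1362, 1261 and 1254 on the C1q arrays in the same order. Array 1 was the high one in both groups, and the rest lay within a few percent of each other. Its fold was 1.01 with an interval of 0.932 to 1.1. Lrp5, its close relative, read 246 ± 21.3 and 238 ± 11.3 (SD, n = 3 each).

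Ror2, a receptor tyrosine kinase that binds Wnt5a, had the largest difference among the members. It read 146, 159 and 168 on untreated arrays 1 to 3, against 174, 176 and 200.4 on the C1q arrays in the same order. All C1q values lay above all untreated ones, by a narrow gap between 168 and 174. The fold was 1.15 with a 95% interval of 0.996 to 1.33 that reached past no change, and the adjusted p from limma was 0.9999. Ryk, an atypical kinase-like receptor that repels axons from Wnt sources, averaged 1343 ± 80.6 untreated, against 1389 ± 6.07 after C1q (SD, n = 3 each). Its C1q values of 1396, 1389 and 1384 lay inside the untreated span of 1294 to 1436.

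**Figure D3:**
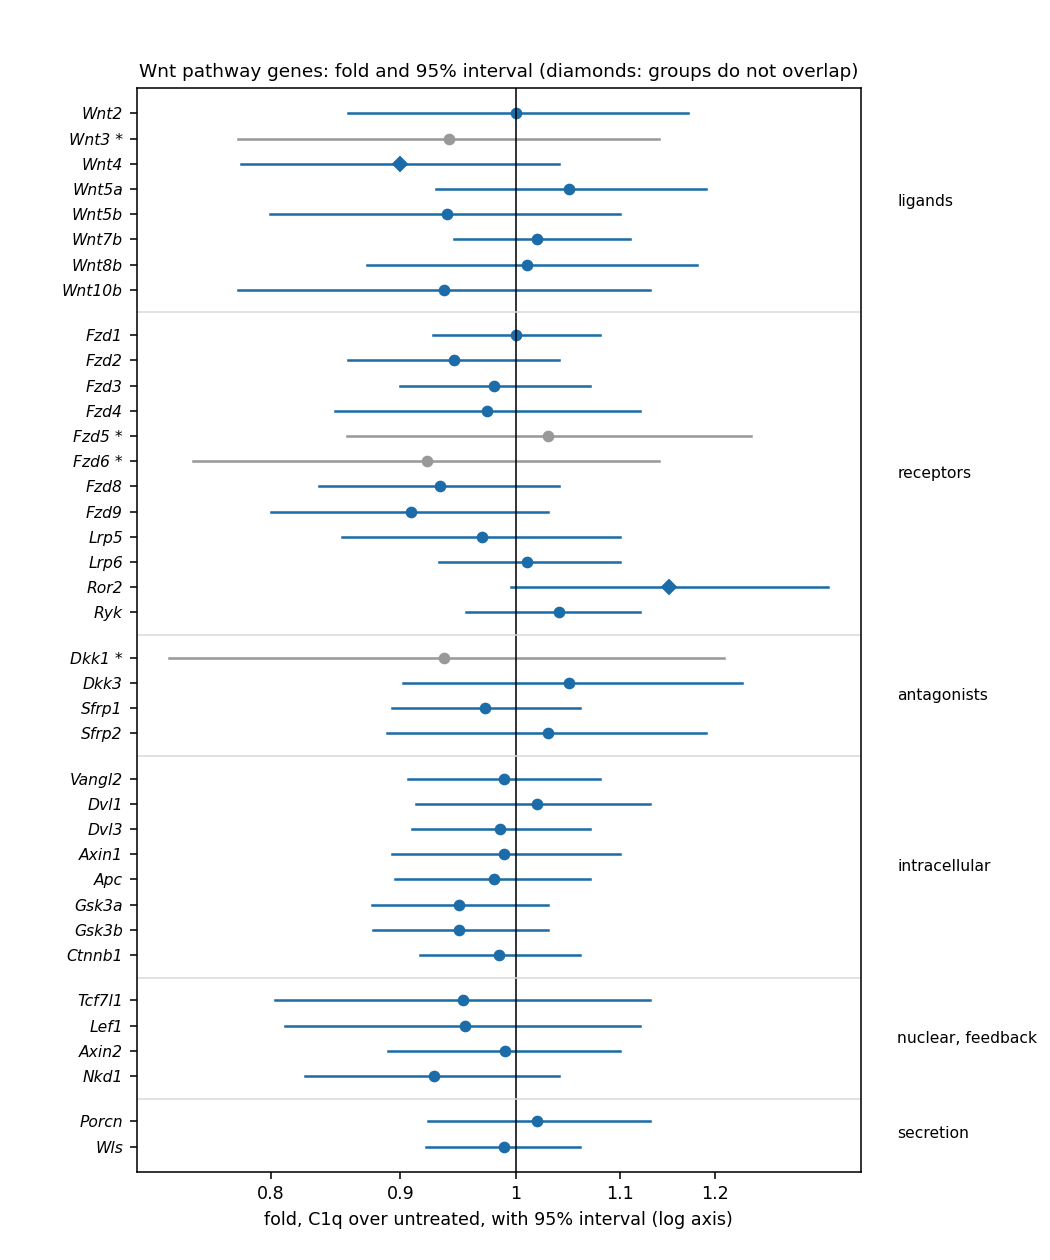
Fold of C1q over untreated (x axis, log scale) for the 38 Wnt pathway genes (y axis, by role), with points for the limma estimate and bars for its 95% interval, and with grey for the 4 genes under the limit, taken from a fit of all probe sets. Diamonds mark Wnt4 and Ror2, whose groups did not overlap. Every bar crosses 1, and that of Ror2 begins at 0.996.

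The secreted antagonists comprised Dkk1, which blocks Lrp5 and Lrp6, its divergent relative Dkk3, and the Frizzled-like decoys Sfrp1 and Sfrp2. Sfrp1 read 849.6, 814 and 778 on untreated arrays 1 to 3, against 765, 792 and 813 on the C1q arrays in the same order. The groups overlapped, and the fold was 0.972 with an interval of 0.893 to 1.06. Sfrp2 read 366 ± 52.2 and 376 ± 19.6, and Dkk3 read 251 ± 29.9 and 265 ± 25.6 (SD, n = 3 each). For both genes the lowest of the 6 values, 306 and 217, came from untreated array 2. Dkk1 lay under the limit and was not tested, at 61.3, 84.4 and 75.2 untreated and 52.3, 65.1 and 89.2 after C1q, with both its extremes on C1q arrays.

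No intracellular component separated the groups. Ctnnb1, the beta-catenin gene, read 3681, 3384 and 3307 on untreated arrays 1 to 3, against 3341, 3428 and 3434 on the C1q arrays in the same order. Untreated array 1 was the high value and the other 5 lay close together. The fold was 0.985 with an interval of 0.916 to 1.06, and its sign turned with quantile normalization, median centring or array weights and without untreated array 1. Gsk3b, a kinase that marks beta-catenin for degradation, read 4665, 4186 and 4366 untreated and 4410, 4123 and 4015 after C1q. The groups overlapped, at a fold of 0.95 with an interval of 0.878 to 1.03. Gsk3a, the sister kinase, read 2581 ± 151 and 2449 ± 99.2 (SD, n = 3 each), with C1q array 1 the lowest at 2338.

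The scaffolds of the destruction complex and the Dishevelled relay overlapped between groups as well. Apc read 2952 ± 227 untreated and 2889 ± 138 after C1q, and Axin1 read 756 ± 60.9 and 746 ± 37.0 (SD, n = 3 each). Dvl1 read 588 ± 45.5 and 597 ± 33.1, and Dvl3 read 1393 ± 69.6 and 1373 ± 54.1 (SD, n = 3 each). Vangl2, a core planar polarity protein gene, read 990.4 ± 67.4 and 978 ± 16.3 (SD, n = 3 each). Of the 8 intracellular genes 7 had a lower and 1 a higher mean after C1q, which became 5 lower and 3 higher under quantile normalization, 3 and 5 under median centring, and 2 and 6 without untreated array 1. The fold intervals of all 8 lay within 1.25-fold.

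Axin2, Nkd1 and Lef1 are transcribed in response to beta-catenin in many tissues, and Axin2 is the most used readout of the canonical branch. Tcf/Lef factors recognise a core of the letters CTTTGAT or CTTTGAA. The 250 bases before the RefSeq start of these genes and of Dkk1, another described target, are shown in assembly GRCr8, 5′ to 3′ on the gene's strand, to set the known readouts beside their transcript values. Capitals mark every match to either core on either strand, the reverse complements being ATCAAAG and TTCAAAG.

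Axin2, chr10:94398535-94398784 (+): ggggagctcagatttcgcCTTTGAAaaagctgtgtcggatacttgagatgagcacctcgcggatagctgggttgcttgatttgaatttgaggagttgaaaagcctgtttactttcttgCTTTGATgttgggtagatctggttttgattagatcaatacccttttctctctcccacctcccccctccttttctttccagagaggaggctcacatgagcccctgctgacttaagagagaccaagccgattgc
Nkd1, chr19:34722847-34723096 (-): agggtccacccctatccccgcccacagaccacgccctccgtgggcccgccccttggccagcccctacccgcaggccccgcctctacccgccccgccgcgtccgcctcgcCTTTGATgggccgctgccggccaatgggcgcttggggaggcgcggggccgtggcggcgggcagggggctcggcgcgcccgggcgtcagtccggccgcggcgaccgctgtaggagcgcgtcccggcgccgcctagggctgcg
Dkk1, chr1:237798651-237798900 (-): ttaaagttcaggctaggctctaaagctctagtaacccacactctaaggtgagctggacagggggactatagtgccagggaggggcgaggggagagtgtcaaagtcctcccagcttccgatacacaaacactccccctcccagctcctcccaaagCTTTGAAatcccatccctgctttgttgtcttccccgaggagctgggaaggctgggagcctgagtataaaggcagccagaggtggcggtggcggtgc
Lef1, chr2:222340463-222340712 (+): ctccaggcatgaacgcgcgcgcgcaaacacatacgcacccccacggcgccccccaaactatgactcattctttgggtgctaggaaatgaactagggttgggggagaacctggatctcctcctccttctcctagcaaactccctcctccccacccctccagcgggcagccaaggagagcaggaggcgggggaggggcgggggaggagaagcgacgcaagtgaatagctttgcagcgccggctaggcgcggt

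Axin2 held both cores, which began 232 and 132 bases before the start, Nkd1 held CTTTGAT at 141 bases and Dkk1 held CTTTGAA at 96 bases, while the Lef1 window held neither. RefSeq promoter entries were found for 33 of the 44 listed genes. CTTTGAT occurred in 2 of the 33, Axin2 and Nkd1, and in 3.15% of 33469 entries of the same length. CTTTGAA occurred in 3, Axin2, Dkk1 and Gsk3a, and in 4.68% of all entries. The cores differ in their last letter alone, so no site matches both. A match describes the letters of the window, and binding was not measured here.

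Transcripts of these readouts did not separate the groups. Axin2 read 282, 271 and 275 on untreated arrays 1 to 3, against 271, 273 and 275 on the C1q arrays in the same order. The 6 values lay within a few percent of one another, among the tightest of all members, with a within-group SD of 0.0209 in log2 where the median over the members tested was 0.0757. The fold was 0.990 with an interval of 0.890 to 1.1, and its sign turned with quantile normalization, median centring and without untreated array 1. Nkd1, which encodes a Dishevelled-binding inhibitor, read 271, 281 and 286 untreated and 265, 239 and 271 after C1q. The highest C1q value met the lowest untreated one at 271, and the fold was 0.928 with an interval of 0.825 to 1.04. Lef1, the Tcf/Lef factor that activates targets, read 202, 161 and 194 untreated and 185, 188 and 155 after C1q. Its lowest values came from one array of each group, and the fold was 0.955 with an interval of 0.810 to 1.12.

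Tcf7l1, which mostly represses targets in the absence of a signal, was the only member with several probe sets. The brightest of its 3 averaged 148 ± 5.96 untreated, against 141 ± 23.3 after C1q (SD, n = 3 each). The others read 136 ± 22.0 and 130.0 ± 4.25, and 80.3 ± 19.5 and 78.4 ± 11.9 (SD, n = 3 each), so that all 3 had the lower mean after C1q. Of the 4 nuclear and feedback genes tested 4 had a lower mean after C1q, and 3 did with quantile normalization, median centring or without untreated array 1. None passed.

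The genes for ligand release were close between groups as well. Porcn, the acyltransferase that attaches the lipid, read 690.1, 621 and 628 on untreated arrays 1 to 3, against 619, 709 and 657 on the C1q arrays in the same order. Its highest and lowest values both came from C1q arrays, and the fold was 1.02 with an interval of 0.923 to 1.13. Wls, the carrier that takes lipidated ligands to the cell surface, read 1340.2, 1270.1 and 1342 untreated and 1285, 1309 and 1311 after C1q. The C1q values lay inside the untreated span, at a fold of 0.989 with an interval of 0.921 to 1.06, and the sign turned with median centring.

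Untreated array 1 gave the highest value for 20 of the 34 tested members, or 58.8%, where it was highest for 42.0% of all probe sets tested. The median deviation of the members from their own mean over 6 arrays was 0.080 in log2 on that array, beside 0.055 over all probe sets, and between -0.030 and 0.005 on the other 5. The pattern was plain in the intracellular genes, where Apc, Gsk3a, Gsk3b, Ctnnb1, Dvl1, Dvl3, Axin1 and Vangl2 each had their highest value on untreated array 1. Without it, 19 members had a higher and 15 a lower mean after C1q, and 0 passed, while the share of all probe sets with a lower mean went from 63.3% to 49.7%. Of the 34 members, 12 kept their sign in every alternative run that tested them, 8 of them lower after C1q and 4 higher. Several of those runs leave the log2 fold change as it was, and the same count over all probe sets is not given here. The count is therefore no measure of robustness.

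**Figure D4:**
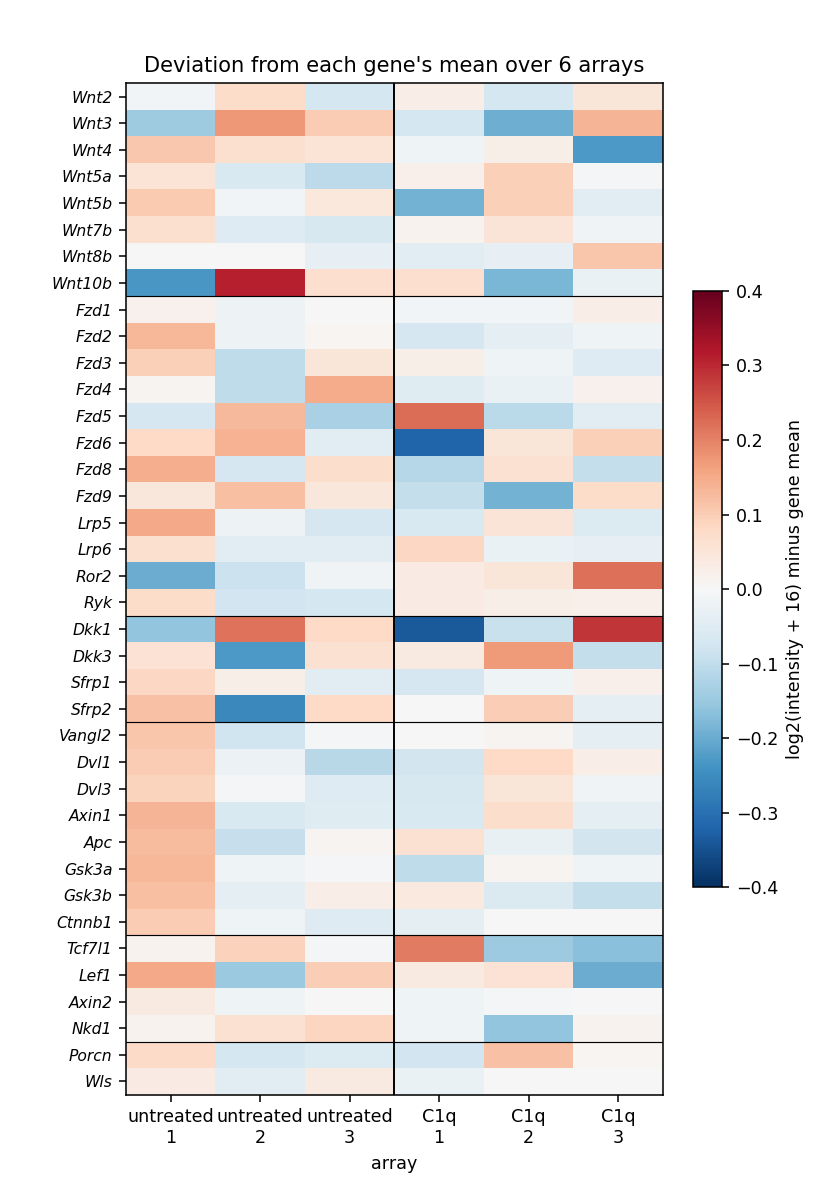
Deviation of log2(intensity + 16) from each gene's mean over 6 arrays (colour, red above and blue below) for the 38 Wnt pathway genes (rows, by role) on the 3 untreated and 3 C1q arrays (columns). The column of untreated array 1 is red for most intracellular genes, with a median deviation of 0.080 over tested members, and no column pair splits red from blue between the groups as a whole.

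Other genes of the pathway, taken from a list of 77 symbols of which 65 had a probe set and 51 were tested, gave 0 higher and 0 lower calls by limma and 0 at an unadjusted p under 0.05. Means were higher for 23 and lower for 28, which became 32 higher and 19 lower under quantile normalization and 34 and 17 under median centring, while the share of all probe sets with a lower mean went from 63.3% to 49.2% and 44.6%. The groups did not overlap for 2 of the 51, or 3.92%, against 5.72% of all probe sets tested. Dkk4, a Dickkopf antagonist gene, read 185, 188 and 181 untreated and 164, 151 and 169.7 after C1q. All 3 C1q values were the lower ones, at a fold of 0.884 with an interval of 0.776 to 1.01 and an adjusted p of 0.9999 in limma. Nkd2, the relative of Nkd1, read 243, 243 and 255 untreated and 265, 264 and 271 after C1q. Here the C1q values were the higher ones, at a fold of 1.07 with an interval of 0.963 to 1.2 that also covered no change.

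In the remaining lists no gene separated the groups. Wnt6 led the 6 tested ligands by smallest p, at 121 ± 12.4 untreated and 110.1 ± 0.362 after C1q (SD, n = 3 each). Pygo2, a chromatin reader of the beta-catenin complex, led the nuclear genes at 440.2 ± 47.4 and 395 ± 33.8 (SD, n = 3 each), with overlapping values. Its log2 fold change of -0.147 was -0.087 with its 2 probe sets averaged, -0.068 without untreated array 1 and -0.078 without C1q array 3. Vangl1, the relative of Vangl2, led the surface genes at 99 ± 7.75 and 88.4 ± 14.9 (SD, n = 3 each) and lay under the limit. Among 15 described beta-catenin targets, which share 5 genes with the other lists, 7 were tested. Id2, a helix-loop-helix inhibitor gene, led them at 3208 ± 229 and 3034 ± 52.7 (SD, n = 3 each). Ccnd1 and Myc, cell cycle regulators induced by beta-catenin in other tissues, read 127 ± 10.8 and 129.5 ± 4.78, and 499 ± 28.0 and 512 ± 22.6 (SD, n = 3 each). Of these 7 targets 2 had a higher and 5 a lower mean, and 4 were higher and 3 lower under either quantile normalization or median centring.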

How the data were processed

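Gene expression was measured in cultured rat cortical neurons on 6 one-colour Affymetrix arrays, 3 per group. The authors deposited 1 processed intensity per probe set and array on a linear scale, for 29215 probe sets. Their summarisation, background correction and normalization are not stated in the labels, nor are detection calls, so signal over background is unknown. Per the labels' protocols, total RNA was column-extracted and biotinylated cRNA was prepared. Genes were named from the platform annotation, which gave exactly 1 gene for 15310 probe sets, several for 323 and none for 13582. The 38 members found matched RefSeq (GRCr8) by gene identifier. Where a gene had several such probe sets, the one with the highest mean of log2(intensity + 16) stood for it. Array medians differed by 0.0696 on this scale, under a limit of 0.1 for centring, so values were used as deposited. The brightest 60% of probe sets, 17529, were tested by limma 3.58.1 in R 4.3.3 (lmFit, then eBayes with trend), two-sided, with Benjamini-Hochberg adjustment over all of them and calls under 0.05. Intervals are 95% intervals of that fit. The fit was tested on simulated data. Per-array values are given for the member of smallest p in each role, members whose groups did not overlap, members past 0.25 in log2 (none were), and 8 central genes, of which Tcf7l2 had no value. From the other pathway lists, the gene of smallest p in each is given. For both rules p came from a fit of all probe sets. Ccnd1 and Myc were added after their values were seen, as were per-array values given for other members. Members and lists were chosen with earlier results of these data known. Promoter sequences are from RefSeq, GRCr8, and motifs were searched on both strands.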

Additional observations from a re-analysis of the deposited data

How the results depend on the processing

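No Wnt pathway gene, of members or other lists, was called under any of 16 alternatives: no filter, the brightest 40%, quantile normalization, median centring, a pseudocount of 1 or 64, no intensity trend, weighted arrays, a replicate block, averaging the probe sets of each gene, and leaving out each array. Over all probe sets, 0 calls became 1 without the filter, 447 with array weights, 9 with the replicate block and 0 to 38 when 1 array was left out, 38 without untreated array 2. Untreated arrays 1, 2 and 3 had weights of 0.362, 0.335 and 5.51, so the untreated side of the weighted run leaned mostly on array 3. Same-numbered arrays did not deviate together (correlations of 0.0141, -0.453 and -0.134), so the block rests on a number alone. Members with a higher mean numbered 7 of 22 among the brightest 40% and 9 to 19 when 1 array was left out, 19 without untreated array 1. Members whose groups did not overlap numbered 0 with the brightest 40%, where neither Wnt4 nor Ror2 was tested, and 1, Ror2, with median centring. The shares of all probe sets in those runs were 4.98% and 4.16%. With quantile normalization such members numbered 3, Wnt5a, Wnt7b and Ror2, beside 7.52% of all probe sets. Such members numbered 3 to 8 of 34 when 1 array was left out, which leaves fewer values to overlap, and 10.9% to 24.7% of all probe sets did not overlap in those runs. Of 251 log2 fold changes of 17 named genes under alternatives, 237 kept their sign, but many of the 251 could not turn. A changed filter, no intensity trend and the replicate block leave the log2 fold change of a gene as it was. So does averaging probe sets for a gene with 1 probe set, so the count is no measure of robustness. The sign turned for Ctnnb1 with quantile normalization (0.006), median centring (0.005) and array weights (0.023), for Axin2 with quantile normalization (0.006) and median centring (0.012), for Sfrp1 with array weights (0.001) and for Wls with median centring (0.010). Leaving out 1 array gave -0.021 to 0.052 for Lrp6, -0.053 to 0.024 for Ctnnb1, -0.158 to 0.014 for Lef1, -0.027 to 0.000 for Axin2 and -0.017 to 0.079 for Porcn. The sign turned without untreated array 2 or 3 or C1q array 1 for Lrp6, without untreated array 1 for Ctnnb1 and Axin2, without C1q array 3 for Lef1 and without C1q array 2 for Porcn. The cause of these turns was not tested. The number of arrays limits the precision, and genes near 94.4 carry an unknown share of background.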
